A study of Mus musculus with 12 samples.

Results

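A set of 9 stretch-responsive genes was taken by symbol from the 17052 genes of the deposited expression table: Ankrd1, Csrp3, Xirp1, Xirp2, Flnc, Nexn, Enah, Fhl1 and Des. These genes were chosen with earlier results of these data known. They encode proteins of the Z-disc, the titin spring and the intercalated disc of heart muscle. RNA from the left ventricle of 12 C57BL/6 mice was sequenced, 1 library per mouse, in 4 groups of 3. Mice had transverse aortic constriction (TAC), in which a clip narrows the aortic arch and raises the pressure load on the ventricle, or a sham operation, at 8 weeks of age, and all were sampled at 12 weeks. The TAC+pimobendan group had TAC and then pimobendan, a calcium sensitizer and phosphodiesterase 3 inhibitor, by mouth at 1 mg/kg per day for 4 weeks. The TAC+control group had TAC without the drug, the Sham+pimobendan group had the sham operation and the same dosing, and the Sham+control group had the sham operation without the drug. The labels name no vehicle for either control group. The model is a surgical one, and no group carries a transgene.

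Cardiac muscle cells pull on their neighbours through the intercalated disc, where the last Z-disc of the myofibril meets adherens junctions and desmosomes. Within the sarcomere the giant protein titin acts as a spring, and several proteins bound to it or to the Z-disc move to the nucleus or change in amount when the cell is stretched. Ankrd1 (CARP) binds the N2A region of titin and is also a nuclear cofactor, Csrp3 (muscle LIM protein) sits at the Z-disc, and Fhl1 binds the N2B region of titin. Xirp1 and Xirp2 are actin-binding Xin repeat proteins of the intercalated disc, Flnc is the muscle filamin that crosslinks actin at Z-discs and discs, Nexn (nexilin) binds actin at the Z-disc, Enah (Mena) promotes actin filament elongation at cell contacts, and Des is the intermediate filament protein that links Z-discs to each other and to the disc.

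Expression was deposited as FPKM, a fragment abundance scaled by transcript length and library total, so levels can be set side by side between genes. The libraries summed to between 593203 and 643478 FPKM over all genes and had 10809 to 11292 genes at 1 FPKM or more. The sequencing depth is not given in the sources used here, so no counting error can be attached to a value. Pearson's r between libraries on log2(FPKM + 1) was 0.986 to 0.994 within groups and 0.974 to 0.994 between groups. Ventricular muscle markers (Myh6, Myl2, Myl3, Tnnt2, Tnni3, Actc1 and Mybpc3) summed to at least 56657 FPKM in every library, against at most 4.68 FPKM for 3 atrial markers and at most 3.96 FPKM for 6 skeletal muscle markers, which matches the labelled tissue. In whole tissue, fewer cells of a type and less RNA per cell cannot be told apart. Replicates are separate mice according to the labels.

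All 9 genes had at least 1 FPKM in at least 3 libraries and were among the 11415 genes tested. By mean level over the 12 libraries Csrp3 (1319 FPKM), Des (916 FPKM) and Ankrd1 (519 FPKM) stood at ranks 63, 105 and 192 of those genes. Xirp1 (93.9 FPKM), Fhl1 (70.0 FPKM), Nexn (52.1 FPKM) and Flnc (46.0 FPKM) formed a middle tier, and Enah (19.5 FPKM) and Xirp2 (15.6 FPKM) were the least abundant. By the ratio of the highest to the lowest library, the genes fell into a more and a less variable kind. The highest library exceeded the lowest 4.59-fold for Nexn, 3.77-fold for Xirp2, 3.00-fold for Ankrd1 and 2.57-fold for Xirp1, whereas the same ratio was 1.58 for Flnc, 1.42 for Fhl1, 1.38 for Enah, 1.34 for Des and 1.27 for Csrp3. For the 4 variable genes the spread between mice of a group was itself wide: the SD within groups on the log2 scale was larger than that of 97.7% of tested genes for Ankrd1, 97.3% for Xirp1, 96.0% for Nexn and 94.8% for Xirp2, and larger than that of 8.60% for Csrp3.

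**Figure D1:**
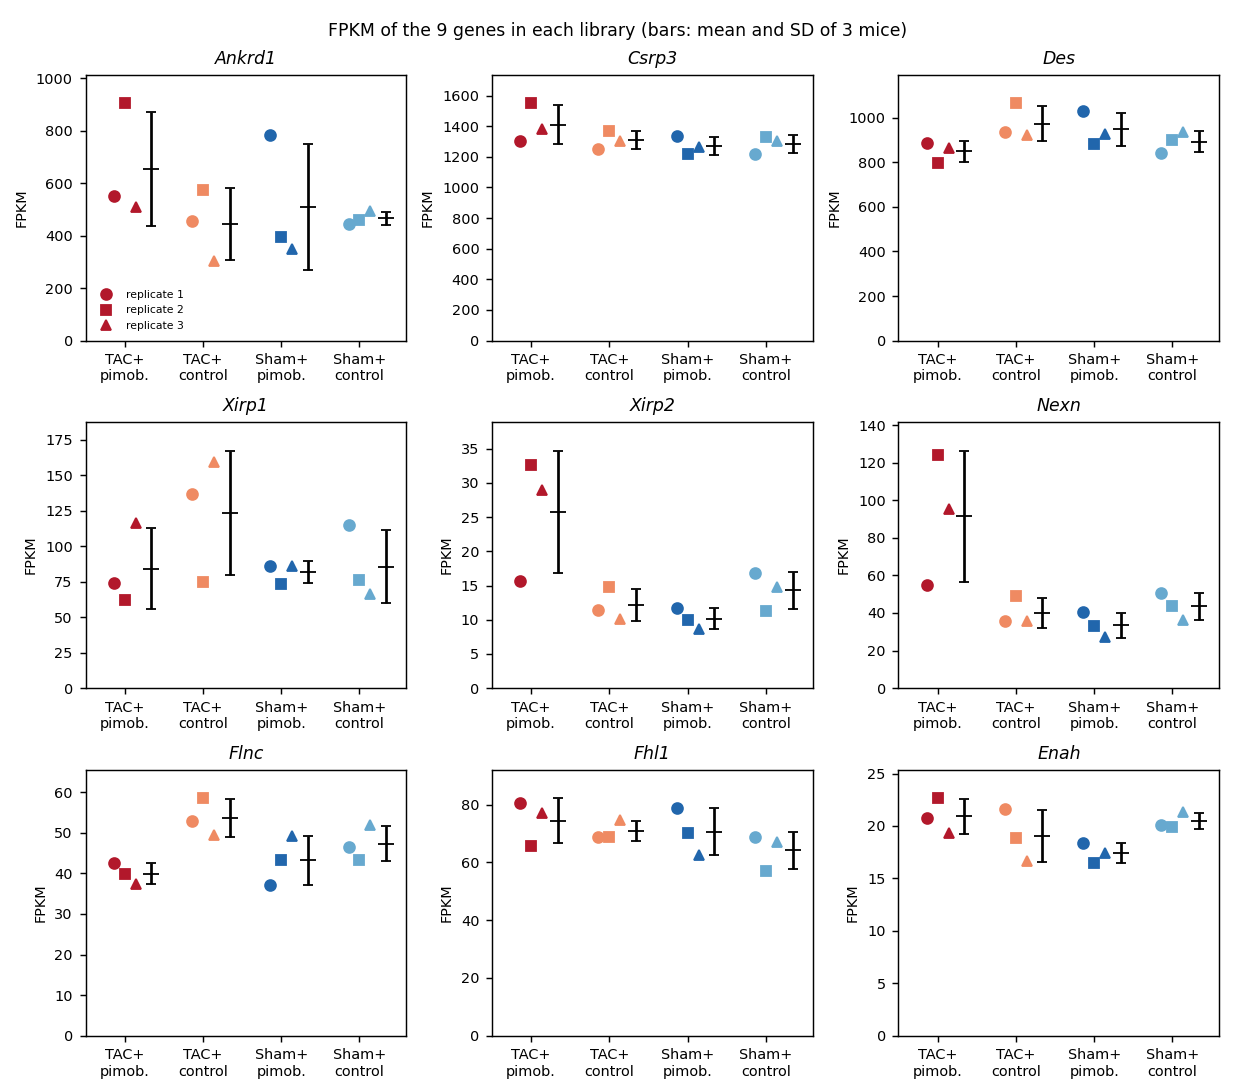
FPKM of each gene in each of the 12 libraries (points, shaped by replicate number), with the mean and SD of the 3 mice beside each group; each panel has its own vertical axis starting at 0. Nexn and Xirp2 were highest in TAC+pimobendan, where their 3 libraries spread from 54.6 to 124.3 FPKM and from 15.7 to 32.7 FPKM. For Csrp3, Des, Enah and Fhl1 the highest library exceeded the lowest 1.27-fold to 1.42-fold.

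RefSeq promoter windows of the GRCm38.p6 assembly, 250 bases before to 50 after an annotated start, were matched for 7 of the 9 genes; Nexn and Xirp1 were not matched. They are shown for 4 genes at the ends of the fold changes described further on, Xirp2 and Ankrd1 on the higher side and Flnc and Des on the lower side. A search on both strands looked for 5 motifs of muscle and stretch-related transcription factors, among them the CArG box of SRF and the MEF2 site. The M-CAT motif of TEAD factors was searched as CATTCC. The motif of GATA factors was searched as GATAAG. The AP-1 motif was searched as TGANTCA. Capitals mark the matches, and positions count from the start site as 0. The Xirp2 window (chr2:67445752-67446051, plus strand) holds an AP-1 match at -107 to -101 and a MEF2 match at -74 to -65, with no overlap between them. The Ankrd1 window (chr19:36119795-36120094, minus strand) holds 2 M-CAT matches, both on the reverse strand, at -210 to -205 and at -123 to -118. The first Flnc window (chr6:29432903-29433202, plus strand) has an M-CAT match at -1 to 4, and the Des window (chr1:75360042-75360341, plus strand) a GATA match at -235 to -230.
Xirp2: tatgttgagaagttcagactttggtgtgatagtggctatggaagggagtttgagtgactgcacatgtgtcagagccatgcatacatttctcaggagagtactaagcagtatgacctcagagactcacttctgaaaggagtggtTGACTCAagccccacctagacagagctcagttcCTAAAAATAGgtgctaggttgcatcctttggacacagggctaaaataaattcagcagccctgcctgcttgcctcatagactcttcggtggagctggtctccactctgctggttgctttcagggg
Ankrd1: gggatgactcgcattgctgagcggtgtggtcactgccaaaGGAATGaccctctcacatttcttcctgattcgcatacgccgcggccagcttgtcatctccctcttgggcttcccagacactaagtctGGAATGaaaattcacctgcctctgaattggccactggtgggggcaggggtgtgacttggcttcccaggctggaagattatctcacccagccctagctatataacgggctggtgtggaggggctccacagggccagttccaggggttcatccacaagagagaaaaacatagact
Flnc: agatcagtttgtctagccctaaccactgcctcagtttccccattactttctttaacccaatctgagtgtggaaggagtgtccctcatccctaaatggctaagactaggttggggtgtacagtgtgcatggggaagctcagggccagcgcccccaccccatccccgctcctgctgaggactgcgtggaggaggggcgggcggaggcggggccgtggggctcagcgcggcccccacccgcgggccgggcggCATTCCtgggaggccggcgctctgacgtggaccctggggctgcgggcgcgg
Des: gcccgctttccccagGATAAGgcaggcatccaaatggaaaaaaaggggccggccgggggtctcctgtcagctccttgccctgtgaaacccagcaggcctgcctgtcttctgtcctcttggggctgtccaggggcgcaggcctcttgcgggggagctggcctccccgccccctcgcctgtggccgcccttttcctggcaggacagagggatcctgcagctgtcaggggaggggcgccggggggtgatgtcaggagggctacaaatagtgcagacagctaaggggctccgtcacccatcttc
Over 32851 promoter windows of the same length, M-CAT was found in 14.7%, AP-1 in 7.81%, the GATA motif in 7.44%, the MEF2 site in 3.19% and the CArG box in 1.63%. The only CArG match among the 10 windows of these genes lay in Fhl1, at -102 to -93. A match is a string of letters, and binding was not measured.

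The comparison of TAC+pimobendan with TAC+control asks what the drug did to these transcripts under pressure overload. Nexn and Xirp2 rose about 2-fold, a call that both kept in 7 of 18 alternatives. Among those 7, a fit of the TAC libraries alone with the replicate number as a block was added after the data were seen. No member passed the test in the lower direction. Flnc and Des were lower in every TAC+pimobendan library than in any TAC+control library without passing it. Of all tested genes, 6.64% were lower without overlap. Of the 9 genes 2 passed at an adjusted p under 0.05 (limma on log2(FPKM + 1), Benjamini-Hochberg over all tested genes), both higher, where 3.27% of all tested genes passed, 3.15% higher and 0.114% lower. At an unadjusted p under 0.05 it was 4 of 9 beside 26.6% of all tested genes. The median log2 fold change was 0.11 over the 9 genes and 0.10 over all tested genes. Because the 9 genes were chosen with earlier results of these data known, their counts beside these shares are descriptions.

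Nexn (NCBI Gene 68810, chr3:152236982-152266351, GRCm38) had 54.6, 124.3 and 95.3 FPKM in TAC+pimobendan and 35.6, 49.3 and 35.5 FPKM in TAC+control. It had 40.2, 33.0 and 27.1 FPKM in Sham+pimobendan and 50.7, 43.8 and 36.3 FPKM in Sham+control. Every TAC+pimobendan library lay above the other 9, the first of them only just; 23.3% of tested genes were higher in TAC+pimobendan than in TAC+control without overlap. The log2 fold change over TAC+control was 1.11 ± 0.25 (SE), a 2.15-fold difference, with an adjusted p of 0.0434 in limma. The deposited table gives the plus strand for this gene and the GENCODE annotation the minus strand. In GENCODE the span of an annotated transcript, Gm43185, overlaps that of Nexn over 2775 bases on the same strand. Spans include introns and exons were not compared, so whether Nexn values take in its reads is not known.

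Xirp2 (NCBI Gene 241431, chr2:67446000-67526620) had 15.7, 32.7 and 29.0 FPKM in TAC+pimobendan and 11.5, 14.8 and 10.2 FPKM in TAC+control. It had 11.7, 10.02 and 8.66 FPKM in Sham+pimobendan and 16.8, 11.3 and 14.7 FPKM in Sham+control. The TAC+pimobendan libraries were all above the TAC+control ones, but the first lay below the first Sham+control library. The log2 fold change over TAC+control was 0.98 ± 0.23 (SE), 1.97-fold, with an adjusted p of 0.0463 in limma. The span of an annotated antisense transcript, Gm13601, overlaps that of the gene, and strand marking is not described in the labels. Spans include introns and exons were not compared, so whether Xirp2 values take in its reads is not known. Both calls were close to the threshold. They held without TAC+control replicate 2 (adjusted p 0.0402 for Nexn and 0.0429 for Xirp2 in limma) and without TAC+pimobendan replicate 1 (0.00607 and 0.00613). They ended without TAC+control replicate 1 (0.149 for both), without TAC+control replicate 3 (0.109 for Nexn and 0.115 for Xirp2), without TAC+pimobendan replicate 2 (0.163 and 0.168) and without TAC+pimobendan replicate 3 (0.138 and 0.147). With the replicate number as a block over all 12 libraries the limma adjusted p was 0.0788 for Nexn and 0.0854 for Xirp2. In the TAC libraries alone it was 0.0891 for both without the block, and 0.0415 and 0.0471 with it, a block fit added after the data were seen. Both calls also ended under median-ratio scaling (0.0682 for Nexn and 0.0707 for Xirp2), under quantile normalization (0.123 and 0.125), with no filter on low values (0.0751 and 0.0758) and with a GC and length trend removed (0.121 and 0.159, limma).

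**Figure D2:**
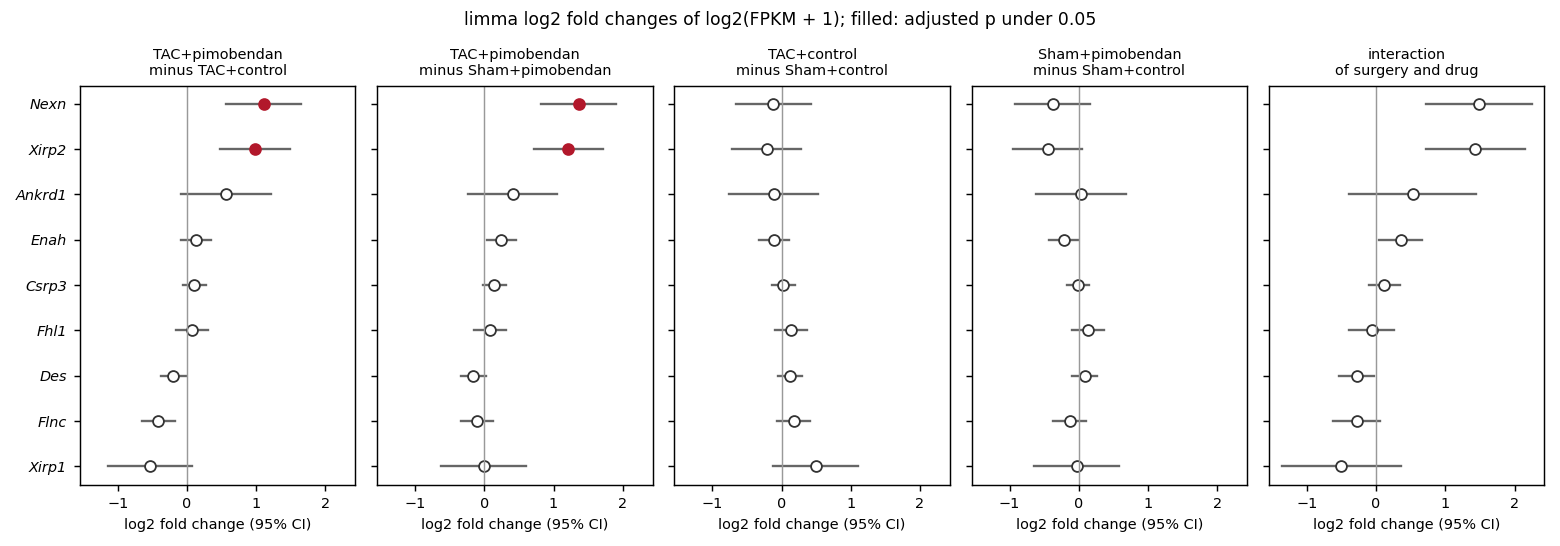
log2 fold change with 95% confidence interval (limma) of each gene in the 4 comparisons between groups and in the interaction; filled points passed the adjusted p of 0.05. Nexn and Xirp2 passed in TAC+pimobendan against TAC+control and against Sham+pimobendan, and no gene passed in the comparisons with Sham+control or in the interaction.

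Ankrd1 (NCBI Gene 107765, chr19:36111965-36119844), the titin-bound ankyrin repeat protein, had 552.1, 906.1 and 510.0 FPKM in TAC+pimobendan and 457.3, 574.2 and 302.2 FPKM in TAC+control. It had 785.9, 395.1 and 348.6 FPKM in Sham+pimobendan and 445.4, 459.9 and 493.2 FPKM in Sham+control. The second TAC+pimobendan library and the first Sham+pimobendan library were far above the rest, the groups overlapped, and the log2 fold change of 0.56 ± 0.30 (SE) did not pass (limma adjusted p 0.25). Each TAC+pimobendan library was above the TAC+control library of the same number, but the labels give no link between mice of the same number. With the replicate block over 12 libraries the adjusted p was 0.234 in limma, and in the block fit of the TAC libraries alone it was 0.0475, with a log2 fold change of 0.56 ± 0.10 (SE); it passed in 1 of 18 alternatives, this one. The log2 fold change was 0.30 without TAC+pimobendan replicate 2 and 0.31 without TAC+control replicate 3.

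Flnc (NCBI Gene 68794, chr6:29433153-29461888) had 42.5, 39.9 and 37.4 FPKM in TAC+pimobendan and 52.9, 58.5 and 49.3 FPKM in TAC+control. It had 37.1, 43.4 and 49.1 FPKM in Sham+pimobendan and 46.6, 43.3 and 51.9 FPKM in Sham+control. The TAC+pimobendan and TAC+control ranges did not overlap, which was so in the lower direction for 6.64% of all tested genes. The log2 fold change was -0.41 ± 0.11 (SE) with a limma adjusted p of 0.0528; without TAC+pimobendan replicate 1 it was -0.46 with an adjusted p of 0.0390. Without any 1 of the other 5 TAC libraries the adjusted p was 0.102 to 0.169, and it passed in 1 of 18 alternatives (limma). Des (NCBI Gene 13346, chr1:75359566-75368579) had 886.7, 796.6 and 864.8 FPKM in TAC+pimobendan and 934.8, 1066 and 921.6 FPKM in TAC+control. It had 1030 FPKM in the first Sham+pimobendan library and 884.0 and 928.6 FPKM in the other two, against 841.1, 900.8 and 937.0 FPKM in Sham+control. Desmin too was lower in all 3 TAC+pimobendan libraries than in any TAC+control library, by a log2 fold change of -0.20 ± 0.08 (SE) with a limma adjusted p of 0.15. The span of an annotated antisense transcript, Gm15179, overlaps that of Des over 368 bases. Beside both genes the summed ventricular muscle markers stood at 56657 to 65776 FPKM in TAC+pimobendan and 68333 to 73106 FPKM in TAC+control. Of these 7 markers 1 was called, Actc1, lower (log2 fold change -0.53, limma adjusted p 0.0482), where 3.27% of all tested genes were called, 0.114% lower. The part of these markers in the result was not tested.

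Xirp1 (NCBI Gene 22437, chr9:120013755-120023598) had 74.1, 62.0 and 116.5 FPKM in TAC+pimobendan and 137.0, 74.8 and 159.3 FPKM in TAC+control. It had 86.2, 73.2 and 86.3 FPKM in Sham+pimobendan and 114.9, 76.2 and 66.1 FPKM in Sham+control. Unlike its paralogue Xirp2, Xirp1 was lower in each TAC+pimobendan library than in the TAC+control library of the same number, although the groups overlapped. Here too the labels do not link mice of the same number. The log2 fold change was -0.53 ± 0.28 (SE) with a limma adjusted p of 0.249, and 0.0593 in the block fit of the TAC libraries alone. It was -0.32 without TAC+control replicate 3, -0.34 without TAC+pimobendan replicate 2 and -0.86 without TAC+control replicate 2, and passed in 0 of 18 alternatives. Xirp1 lies within the annotated span of Cx3cr1, a macrophage chemokine receptor gene, on the same strand. Exons were not compared, so whether Xirp1 values take in reads of Cx3cr1 is not known.

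Csrp3 (NCBI Gene 13009, chr7:48830398-48848051) averaged 1411 ± 128 FPKM in TAC+pimobendan, 1308 ± 58.5 FPKM in TAC+control, 1272 ± 57.6 FPKM in Sham+pimobendan and 1284 ± 56.4 FPKM in Sham+control (SD, n = 3 each). Enah (NCBI Gene 13800, chr1:181896384-182019980) averaged 20.9 ± 1.67 FPKM in TAC+pimobendan, 19.0 ± 2.46 FPKM in TAC+control, 17.4 ± 0.96 FPKM in Sham+pimobendan and 20.5 ± 0.769 FPKM in Sham+control. Fhl1 (NCBI Gene 14199, chrX:56731720-56793346) averaged 74.5 ± 7.81 FPKM in TAC+pimobendan, 70.8 ± 3.47 FPKM in TAC+control, 70.6 ± 8.18 FPKM in Sham+pimobendan and 64.2 ± 6.38 FPKM in Sham+control. For these 3 genes the TAC+pimobendan and TAC+control ranges overlapped. Their log2 fold changes were 0.11 for Csrp3 (95% interval -0.06 to 0.27), 0.13 for Enah (-0.08 to 0.35) and 0.07 for Fhl1 (-0.16 to 0.30), with limma adjusted p of 0.393, 0.421 and 0.725. Annotated transcripts on the same strand overlap Enah (2700078F05Rik, Gm38359, Gm37018 and Gm37258, over 1627 to 3869 bases each) and Fhl1 (Gm23258, 106 bases). These overlaps are between whole gene spans and exons were not compared. Whether the values of Enah and Fhl1 take in reads of those transcripts is not known.

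TAC+pimobendan against Sham+pimobendan compares the pressure load with the sham operation in treated mice. The TAC+pimobendan libraries are the same as above, so the values are given side by side and are not a second, independent observation. Nexn and Xirp2 were again the 2 of 9 that passed, where 4.89% of all tested genes passed (4.64% higher and 0.245% lower), and 3 of 9 beside 22.9% had an unadjusted p under 0.05. The log2 fold change was 1.36 ± 0.25 (SE) for Nexn and 1.21 ± 0.23 for Xirp2, 2.57-fold and 2.32-fold, each with an adjusted p of 0.0314 in limma. Nexn, Xirp2 and Enah, 3 of 9, were higher in every TAC+pimobendan library than in any Sham+pimobendan library, beside 18.6% of tested genes. None, 0 of 9, were lower without overlap, beside 9.35%. Enah had a log2 fold change of 0.25 ± 0.10 (SE, limma adjusted p 0.161). The others had log2 fold changes of 0.41 for Ankrd1, 0.15 for Csrp3, 0.08 for Fhl1, -0.01 for Xirp1, -0.10 for Flnc and -0.16 for Des, with limma adjusted p of 0.264 to 0.991. Both calls held without Sham+pimobendan replicate 1 (0.0465) and without TAC+pimobendan replicate 1 (0.00192 for Nexn and 0.00193 for Xirp2) and ended without Sham+pimobendan replicate 2 (0.0834), Sham+pimobendan replicate 3 (0.153), TAC+pimobendan replicate 2 (0.168) or TAC+pimobendan replicate 3 (0.152), and with the replicate block (0.0652 for both, limma). They also ended with no filter on low values (0.0641), in the groups compared alone (0.0629) and with the GC and length trend removed (0.117), and passed in 8 of 17 alternatives.

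TAC+control against Sham+control asks what the pressure load did without the drug. None of the 9 genes passed: 0 of 9, with 0% of all tested genes passing in limma, and 0 of 9 and 8.33% (951 genes) at an unadjusted p under 0.05. All 9 ranges overlapped, where 3% of tested genes were higher and 9.74% lower without overlap. The largest log2 fold change of the 9 was that of Xirp1, at 0.49 ± 0.28 (SE), with 123.7 ± 43.8 FPKM in TAC+control and 85.7 ± 25.8 FPKM in Sham+control (SD, n = 3 each; limma adjusted p 0.668). Over its 17 alternatives it ranged from 0.28, without TAC+control replicate 3, to 0.82, without TAC+control replicate 2. Ankrd1, a transcript widely used as a marker of load on the heart, averaged 444.6 ± 136 FPKM in TAC+control and 466.2 ± 24.5 FPKM in Sham+control, a log2 fold change of -0.12 with a 95% interval of -0.76 to 0.53. Nexn and Xirp2 had log2 fold changes of -0.12 and -0.22 there, and the remaining genes lay between -0.11 for Enah and 0.18 for Flnc. The stretch and hypertrophy list also had 0 of 12 tested genes called in this comparison, with a median log2 fold change of -0.19, against -0.06 over all tested genes, and 4 of 12 above 0. The list was mixed. Acta1 averaged 802.1 ± 736 FPKM in TAC+control and 230.1 ± 81.2 FPKM in Sham+control, and Nppb 776.0 ± 391 and 599.6 ± 56.5 FPKM (SD, n = 3 each). Lower in TAC+control were Nppa, at 192.6 ± 70.6 and 267.8 ± 44.5 FPKM, and Cyr61, at 142.4 ± 90.1 and 266.6 ± 130 FPKM.

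Sham+pimobendan against Sham+control gives the drug without the load. Again 0 of 9 passed and 0% of tested genes did in limma; at an unadjusted p under 0.05 it was 1 of 9 and 4.54% (518 genes). The 1 gene was Enah, with 18.4, 16.5 and 17.4 FPKM in Sham+pimobendan and 20.1, 19.9 and 21.3 FPKM in Sham+control, lower without overlap as 4.98% of tested genes were (log2 fold change -0.22 ± 0.10, SE; limma adjusted p 0.91). No member was higher without overlap, beside 6.16% of tested genes. Xirp2 and Nexn had log2 fold changes of -0.45 ± 0.23 and -0.38 ± 0.25 (SE), opposite in sign to those in the TAC arms.

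Whether the drug's difference itself depended on the operation was tested as an interaction. No gene of the 9 and 0% of all tested genes passed in limma, while 4 of 9 and 20.3% (2312 genes) had an unadjusted p under 0.05. The interaction was 1.48 ± 0.35 (SE) on the log2 scale for Nexn and 1.43 ± 0.33 for Xirp2, each with an adjusted p of 0.0853 in limma. Enah had 0.35 ± 0.14 (adjusted p 0.184) and Des -0.28 ± 0.12 (adjusted p 0.198, SE, limma). Without TAC+pimobendan replicate 1 the interaction passed for both Nexn (1.81, adjusted p 0.00947) and Xirp2 (1.74, adjusted p 0.00928 in limma). It passed for either gene in 1 of 22 alternatives, this one, and was lowest with the GC and length trend removed, at 1.03 for Nexn and 0.87 for Xirp2; the highest limma adjusted p, with the trend removed and the block, was 0.402 and 0.408. Averaged over both drug arms, TAC minus Sham gave 0.62 ± 0.18 for Nexn and 0.50 ± 0.16 for Xirp2 (SE, limma adjusted p 0.248 and 0.254), with 0 of 9 genes and 0% of tested genes passing and 14.1% (1610 genes) at an unadjusted p under 0.05; without TAC+pimobendan replicate 1 both passed (0.78, adjusted p 0.0359, and 0.65, adjusted p 0.0453), the only 1 of 22 alternatives in which either did. Averaged over both operations, pimobendan minus control gave -0.27 ± 0.08 for Flnc (SE, limma adjusted p 0.308), and 0 of 9 genes passed beside 0.00876% of tested genes, which is 1 gene.

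Single libraries carried much of the pattern. The second TAC+pimobendan library was the highest of the 12 for Ankrd1, Csrp3, Xirp2, Nexn and Enah and the lowest for Xirp1 and Des. The first TAC+pimobendan library was the lowest of its group for Nexn and Xirp2 and the highest of the 12 for Fhl1. Over the 12 libraries Pearson's r of log2(FPKM + 1) was 0.966 between Nexn and Xirp2 and 0.722 between Ankrd1 and Csrp3, but -0.192 between the paralogues Xirp1 and Xirp2 and -0.535 between Ankrd1 and Xirp1; all values of a pair come from the same libraries and these r are descriptions.

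**Figure D3:**
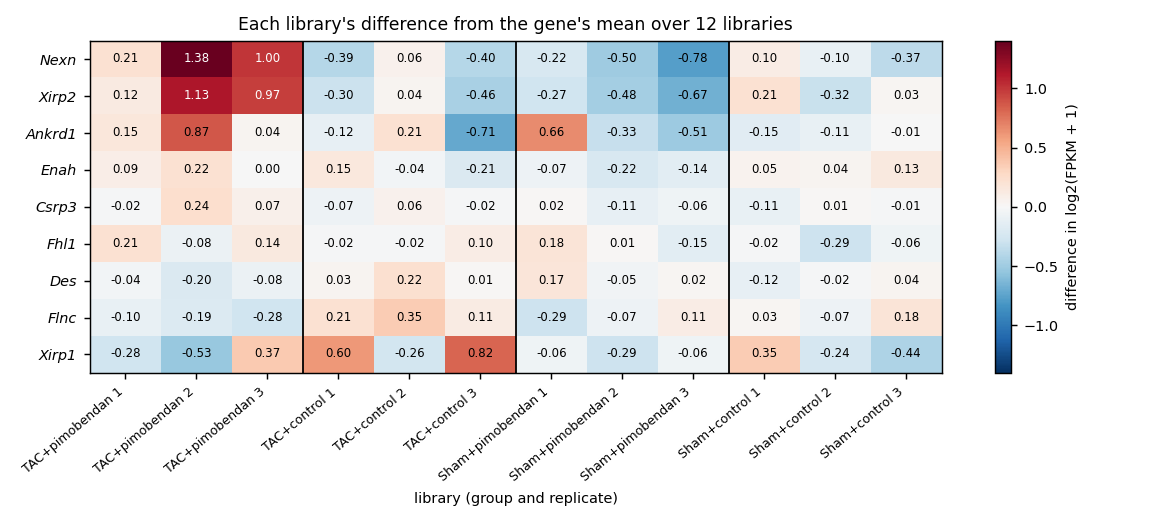
Deviation of log2(FPKM + 1) from the mean of the 12 libraries, for each gene (rows) and library (columns); red is above and blue below the gene's mean. TAC+pimobendan replicates 2 and 3 were high for Nexn and Xirp2, and the rows of Xirp1 and Ankrd1 show single libraries standing out in several groups.

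The genes also differed in base composition, which moved with the libraries. GC content of the longest coding transcript was 39.6% for Nexn, 42.2% for Xirp2 and 44.2% for Enah, 47.9% for Ankrd1, 50.0% for Fhl1 and 51.9% for Csrp3, and 56.5% for Des, 57.0% for Xirp1 and 58.4% for Flnc, with a median of 50.5% over tested genes. Ranking genes by GC content against their deviation from the 12-library mean gave, over all tested genes with a GC value, a Spearman's rho of -0.210, -0.522 and -0.541 in TAC+pimobendan and 0.129, 0.0239 and 0.288 in TAC+control. It was 0.144, 0.362 and 0.545 in Sham+pimobendan and -0.359, 0.089 and 0.470 in Sham+control. The one sham library with a negative rho, Sham+control replicate 1, also had the highest Nexn and Xirp2 of the 6 sham libraries. Other libraries were not in the order of rho. Sham+control replicate 3 (rho 0.470) was above replicate 2 (rho 0.089) for Xirp2 and below it for Nexn. TAC+pimobendan replicate 3 had the lowest rho, while TAC+pimobendan replicate 2 was highest for both genes. Transcript length moved with the libraries too. Spearman's rho of length against the same deviations was 0.231, 0.181 and 0.275 in TAC+pimobendan and -0.102, -0.265 and -0.127 in TAC+control. It was -0.0985, -0.0214 and -0.326 in Sham+pimobendan and 0.330, -0.0603 and -0.155 in Sham+control. Lengths were 11979 bases for Xirp2, 11229 for Enah, 9038 for Flnc and 2564 for Nexn, with a median of 3103 over tested genes. In the quintile of genes lowest in GC, which holds Nexn, Xirp2 and Enah, the median log2 fold change of TAC+pimobendan over TAC+control was 0.31 and 10.3% of genes were called. Nexn and Xirp2 lay above the 95th percentile of that quintile, 0.77, and Enah below its median. In the quintile highest in GC, with Xirp1, Flnc and Des, the median was -0.04 and 0.706% were called; Flnc and Xirp1 lay below its 5th percentile of -0.34. With a GC and length trend removed from each library, the log2 fold change over TAC+control was 0.74 for Nexn and 0.57 for Xirp2 (limma adjusted p 0.121 and 0.159), and over Sham+pimobendan 0.96 and 0.78 (0.117 for both), with no gene of the table called; Enah over TAC+control then had -0.22. The part of base composition and transcript length in the result beyond this was not tested.

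**Figure D4:**
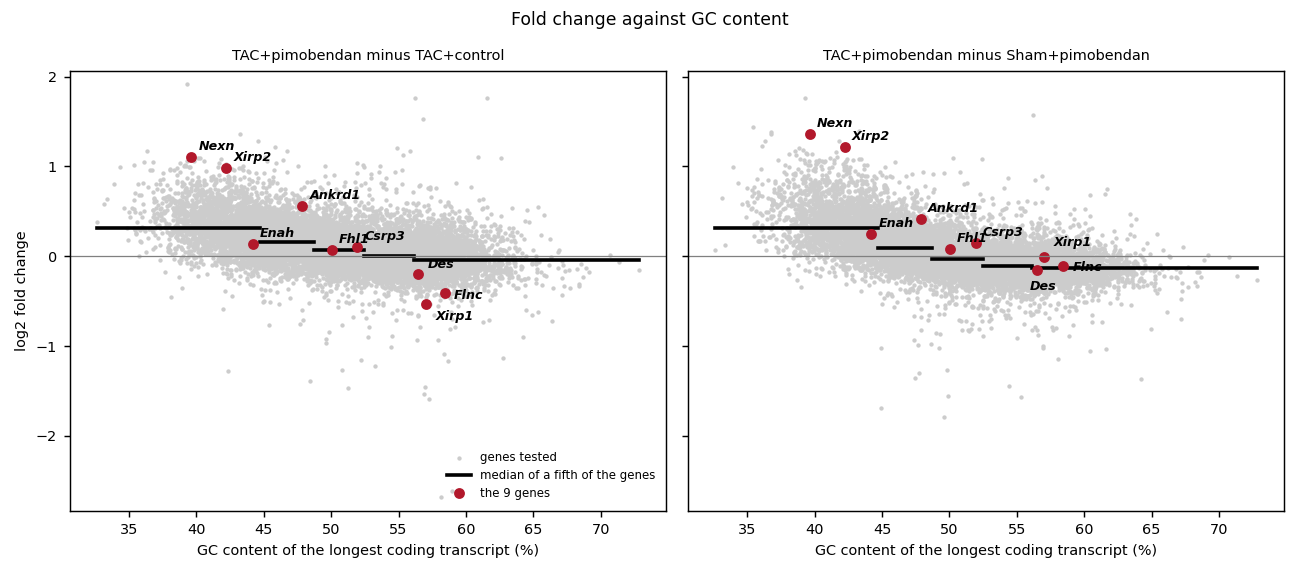
log2 fold change against GC content of the longest coding transcript (%), for all tested genes with a GC value (grey), the median of each quintile of the genes (black lines) and the 9 genes (red), in TAC+pimobendan against TAC+control (left) and against Sham+pimobendan (right). The median of the lowest quintile was 0.31 on the left and 0.32 on the right, and Nexn and Xirp2 lay above it in both.

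The proteins around these genes are given from lists of related genes. The lists too were chosen with earlier results of these data known, so their counts beside shares of all tested genes are descriptions. Of 16 junction genes of the intercalated disc, 1 was called in TAC+pimobendan against TAC+control: Dsp, desmoplakin of the desmosome, which averaged 156.7 ± 3.22 FPKM in TAC+pimobendan and 122.4 ± 3.44 FPKM in TAC+control (SD, n = 3 each; log2 fold change 0.35 ± 0.086, SE; limma adjusted p 0.0486), beside 3.27% of all tested genes. The list's median log2 fold change was 0.21, against 0.10 over all tested genes. Of 20 tested genes of titin and the Z-disc, 2 rose and 1 fell, where 3.15% of all tested genes rose and 0.114% fell. Cmya5 (myospryn; 0.66 ± 0.15, adjusted p 0.0430) and Nebl (nebulette, a thin filament protein of the Z-disc; 0.81 ± 0.20, adjusted p 0.0472) were higher, and Actn2, the Z-disc crosslinker alpha-actinin, fell to 996.7 ± 109 FPKM in TAC+pimobendan, against 1294 ± 39.4 FPKM in TAC+control (-0.38 ± 0.078, adjusted p 0.0409, limma). The list's median was 0.02. Under median-ratio scaling, quantile normalization or removal of the GC and length trend, 0 genes of the table passed in TAC+pimobendan against TAC+control. The calls of Dsp, Cmya5, Nebl and Actn2 therefore ended there. GC content was 40.1% for Nebl, 48.8% for Cmya5, 51.8% for Dsp and 55.1% for Actn2. In TAC+pimobendan against Sham+pimobendan 3 of these 20 rose, Ttn (titin itself; 0.65 ± 0.14), Nebl (1.03 ± 0.20) and Cmya5 (0.72 ± 0.15), each with a limma adjusted p of 0.0314, and 0 of the 16 junction genes passed, where 4.89% of all tested genes did. With the GC and length trend removed, 0 genes of the table passed in that comparison.

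None of the 12 genes of the desmin and filamin network passed in TAC+pimobendan against TAC+control (median -0.12); the smallest p were those of the chaperones Hspa8 (-0.44, limma adjusted p 0.0547) and Cryab (-0.25, adjusted p 0.0712). None of 11 genes of Ena/VASP and actin assembly passed (median -0.02), with Zyx (zyxin, which binds Ena/VASP proteins) at -0.40 and Pfn1, profilin, at -0.18 (limma adjusted p 0.139 and 0.25). None of 12 tested stretch and hypertrophy transcripts passed (median 0.16), with Srf at -0.45 and Nppa at 0.96 (limma adjusted p 0.0958 and 0.10). In the comparisons with Sham+control none of the genes of any of the 6 lists passed in limma, where 0% of all tested genes did.

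The paralogues had levels and differences of their own. Ankrd23, the other titin-bound ankyrin repeat protein with a clear level in this tissue, averaged 173.6 ± 46.3 FPKM in TAC+pimobendan, 277.0 ± 113 FPKM in TAC+control, 249.3 ± 35.2 FPKM in Sham+pimobendan and 258.1 ± 19.2 FPKM in Sham+control (SD, n = 3 each), a log2 fold change of -0.63 over TAC+control where Ankrd1 had 0.56 (limma adjusted p 0.119 for Ankrd23). Ankrd2, their skeletal muscle relative, averaged at most 0.47 FPKM in any group and was not tested. Fhl2 averaged 1274 ± 207 FPKM in TAC+pimobendan and 1454 ± 54.8 FPKM in TAC+control, far above Fhl1, and Fhl3 averaged 8.21 ± 1.08 FPKM in TAC+pimobendan and 7.65 ± 0.613 FPKM in TAC+control. Csrp1 and Csrp2 averaged 35.1 ± 5.10 and 13.2 ± 1.91 FPKM in TAC+pimobendan, Flna 21.1 ± 3.23 FPKM, and Vasp and Evl 19.9 ± 1.66 and 12.1 ± 2.29 FPKM, so that Csrp3 was above Csrp1 and Csrp2, Flnc was above Flna, and Enah was close to Vasp. None of the 10 tested paralogues passed in any comparison (limma).

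The genes most like each member in pattern were found by Pearson's r of log2(FPKM + 1) over the 12 libraries, among 5301 genes with a mean of at least 10 FPKM. Nexn was most like Trdn (triadin of the calcium release complex, r = 0.992) and Ktn1 (kinectin, 0.991), and Xirp2 most like Ktn1 (0.986) and Slk (a protein kinase, 0.984); Trdn and Ktn1 have GC contents of 36.8% and 42.2%. Ankrd1 was most like Pla2g16, a phospholipase (0.979, and 0.977 within groups), with Stx4a, a syntaxin, next (0.838). Csrp3 was most like Psma2, a proteasome subunit (0.886), and Stx4a (0.877). Des had an r of 0.906 with Tsta3. Flnc was most like Mrpl58 (0.908) and Aars, alanyl-tRNA synthetase (0.895), and Xirp1 most like Patl1 (0.878) and Slc31a1, a copper transporter (0.863). Fhl1 was most like Slc41a1, a magnesium transporter (0.876), and Tsn (0.806), and Enah like Ube2g1 (0.845) and Sorbs2, a Z-disc adaptor (0.832). All points share libraries and their base composition trends, and these r are descriptions with no test.

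**Figure D5:**
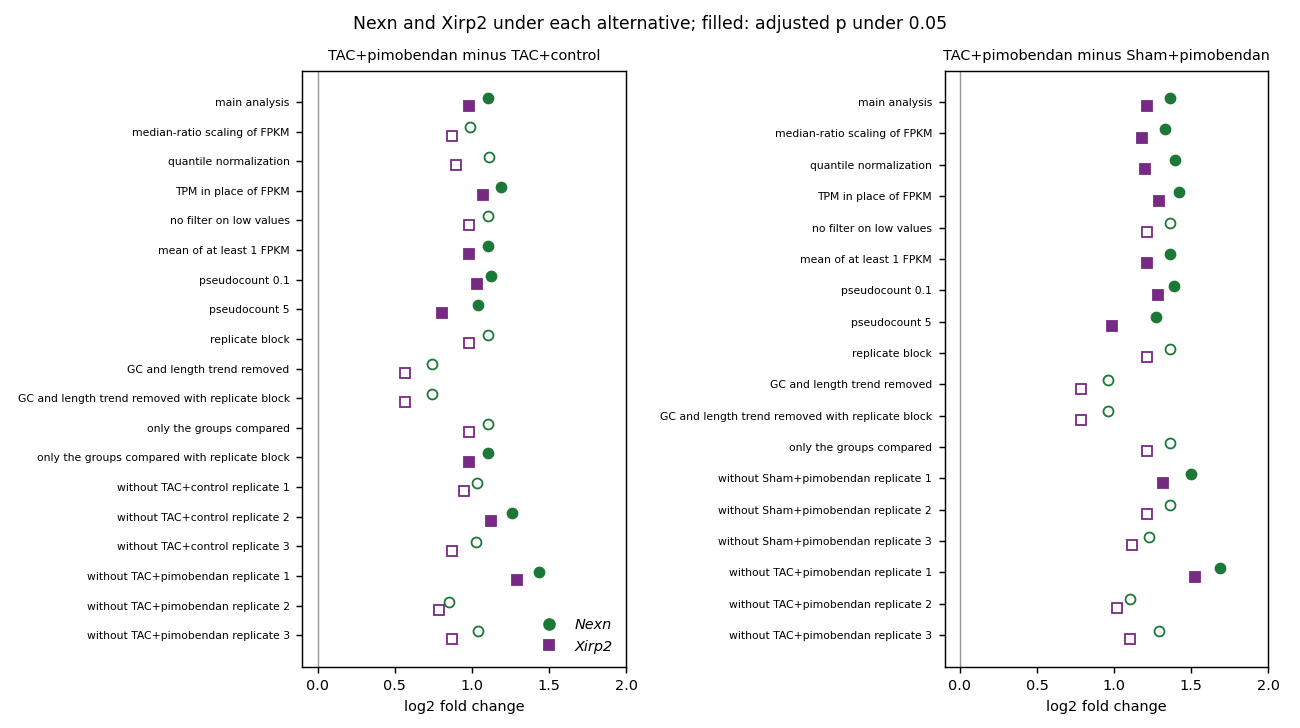
log2 fold change of Nexn (circles) and Xirp2 (squares) under the main analysis and each alternative, in TAC+pimobendan against TAC+control (left) and against Sham+pimobendan (right); filled points passed the adjusted p of 0.05. On the left Nexn ranged from 0.74 to 1.43 and Xirp2 from 0.57 to 1.29, always above 0, and both passed in 7 of 18 alternatives. Among those 7, the block fit of the TAC libraries alone was added after the data were seen.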

How the data were processed

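The deposited table gives FPKM and TPM per gene and library, both computed by the authors, per the file headers; no counts were used. Per the submitters' processing notes, the tools were RSEM 1.2.12, HISAT2 2.0.4, DESeq2 1.4.5 and Bowtie2 2.2.5, given with no role or order, on GRCm38. The 11415 genes, all 9 members included, that reached 1 FPKM in 3 or more libraries were tested on log2(FPKM + 1) with limma 3.58.1 (R 4.3.3), 1 mean per group over 12 libraries, 8 residual degrees of freedom, trended variance and Benjamini-Hochberg adjustment; a count test was planned for counts only. Fold changes on this scale understate those of low genes. The limma fit was tested on simulated data with independent noise per gene and planted changes. The simulation held no GC or length trend, so it does not bear on that dependence. GC content and length came from the longest coding transcript of the GENCODE annotation (11334 tested genes). Members and lists were chosen with earlier results of these data known. Named genes were all members, list genes called or else with the smallest p, paralogues, and the most alike genes; 2 of these genes are not reported here. Same-numbered TAC+pimobendan and TAC+control libraries had r = 0.154, 0.208 and 0.101 in their deviations, which meets a rule of 0.1 for every pair. No other groups met that rule. Between other groups r reached 0.434 for libraries of different numbers and -0.440 for libraries of the same number. The values of the TAC libraries lie within that scatter and do not establish pairing, and the labels give no origin for the numbers. Alternatives were scaling, TPM, filter, pseudocount (0.1 and 5), a fold of 0.5, the groups fitted, the replicate block, a spline of 5 degrees of freedom on GC and length, and leaving out each replicate.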

Additional observations from a re-analysis of the deposited data

How the results depend on the processing

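Depth is unknown and each group has 3 mice, which limits every test. In TAC+pimobendan against TAC+control, 373 genes and 2 members passed; 0 and 0 did under median-ratio scaling, quantile normalization, no filter, the groups compared alone, and the GC and length trend removed with or without the replicate block, and 1170 genes did with TPM. Against Sham+pimobendan, 558 genes and 2 members passed; 355 genes did under median-ratio scaling and 298 under quantile normalization, and 0 and 0 without a filter, in the groups compared alone and with the trend removed, with or without the block. The replicate block left 1 gene and 0 members over TAC+control and 0 and 0 over Sham+pimobendan; it changed no other member's call over 12 libraries. In the block fit of the TAC libraries alone, 361 genes and 3 members passed. Median-ratio scaling moved the median of all genes by -0.10 and quantile normalization by -0.12. Leaving out 1 replicate gave 0 to 1190 genes and 0 to 3 members over TAC+control, 0 to 1225 and 0 to 2 over Sham+pimobendan, 0 to 4 genes for TAC+control over Sham+control (2 with these groups alone), 0 to 773 and 0 to 2 for the interaction, 0 to 84 and 0 to 2 for TAC minus Sham, and 0 to 2 genes for pimobendan minus control (main 1; 0 without a filter, 2 with trend and block). Signs turned, none past the threshold, as follows. Over TAC+control: Csrp3 -0.014 and Fhl1 -0.051 (median-ratio), Enah -0.22 and Fhl1 -0.0048 (trend, with and without block). TAC+control over Sham+control: Csrp3 -0.13 (quantile) and -0.017 (TPM), Enah 0.032 (trend). Sham+pimobendan over Sham+control: Ankrd1 -0.0010 (quantile). Over Sham+pimobendan: Xirp1 0.057 (quantile), 0.042 (TPM) and 0.049 (trend), Enah -0.089 (trend). Interaction: Fhl1 0.026 (TPM), Enah -0.12 (trend). TAC minus Sham: Des 0.0035 (median-ratio), 0.015 (quantile) and 0.075 (trend), Enah -0.029 (trend). Pimobendan minus control: Csrp3 -0.019 (median-ratio), Des 0.010 (quantile). With 1 replicate left out, TAC+control over Sham+control ranged from -0.0100 to 0.056 for Csrp3 and -0.32 to 0.14 for Ankrd1; Sham+pimobendan over Sham+control from -0.19 to 0.20 for Xirp1, -0.051 to 0.015 for Csrp3 and -0.33 to 0.26 for Ankrd1; TAC+pimobendan over Sham+pimobendan from -0.27 to 0.18 for Xirp1 and -0.0056 to 0.16 for Fhl1; the interaction from -0.15 to 0.020 for Fhl1; TAC minus Sham from -0.049 to 0.015 for Des and -0.015 to 0.084 for Flnc; pimobendan minus control from -0.087 to 0.0012 for Enah. The cause of these shifts was not tested.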

Other observations

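Markers of other cell types had summed levels as follows. The counts of called markers stand beside 3.27% of all tested genes called over TAC+control, 3.15% higher and 0.114% lower. Over Sham+pimobendan 4.89% of all tested genes were called, 4.64% higher and 0.245% lower. With the GC and length trend removed, 0 genes of the table were called in either comparison. Erythroid markers summed to 1142 to 2281 FPKM in TAC+pimobendan and 4199 to 6702 FPKM in TAC+control, with 1 of 5 called, Alas2, the erythroid haem synthesis enzyme, lower (limma adjusted p 0.0409). Fibroblast markers summed to 397.0 to 463.4 FPKM in TAC+pimobendan and 309.6 to 393.0 FPKM in TAC+control, and macrophage markers to 190.3 to 254.5 FPKM in TAC+pimobendan and 168.8 to 174.2 FPKM in TAC+control, with 0 of 6 called in each list. Smooth muscle and pericyte markers, of cells that also express Des, summed to 233.0 to 257.0 FPKM in TAC+pimobendan and 227.0 to 255.2 FPKM in TAC+control, with 0 of 7 called. Endothelial markers summed to 1161 to 1543 FPKM in TAC+pimobendan and 958.8 to 1193 FPKM in TAC+control, with 0 of 6 called. In TAC+pimobendan against Sham+pimobendan, the smooth muscle and pericyte markers summed to 233.0 to 257.0 FPKM in TAC+pimobendan and 272.5 to 363.8 FPKM in Sham+pimobendan, without overlap. Of these 7 markers 1 was called, Acta2, the smooth muscle actin, which averaged 36.8 ± 17.0 FPKM in TAC+pimobendan and 126.8 ± 51.8 FPKM in Sham+pimobendan (SD, n = 3 each; log2 fold change -1.79, limma adjusted p 0.0314). Endothelial markers summed to 1161 to 1543 FPKM in TAC+pimobendan and 1277 to 1451 FPKM in Sham+pimobendan, with 1 of 6 called, Pecam1, lower (log2 fold change -0.45, limma adjusted p 0.0497). Erythroid markers summed to 1142 to 2281 FPKM in TAC+pimobendan and 452.1 to 1906 FPKM in Sham+pimobendan, with 0 of 5 called, and 0 of 6 were called among the fibroblast and among the macrophage markers. The part of these markers in the differences of the 9 genes was not tested.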
